A study of Homo sapiens with 6 samples.

Results

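Aminoacyl-tRNA synthetases are the enzymes that load each amino acid onto its tRNA, and this account describes their genes in lenalidomide-resistant (LenR) and control (WT) myeloma cells. The members were chosen by name: 36 synthetase symbols, 20 whose products work in the cytosol and 16 whose products work in mitochondria. All 36 were found among the 12760 genes of the deposited expression table, mostly under older symbols such as AARS for AARS1. Their measured values did not define the set.

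The cells were MM.1S, a human myeloma line, that is, tumour cells of the antibody-secreting plasma cell lineage, and RNA-seq was made from bulk cultures. LenR cells (3 libraries) had been kept in lenalidomide, starting at 10 nM and raised 10-fold every month for 3 months. WT cells (3 libraries) had been kept in the solvent DMSO over the same time. Both groups carry the same genotype label, WT, and share the medium and serum. The labels do not say whether lenalidomide was present at harvest, so current drug exposure and past selection cannot be told apart. The replicates are called biological, but nothing says that more than 1 resistant line was derived. All p-values below therefore speak only of the spread among these 6 cultures, part of which may be technical.

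Expression was given as FPKM, a level scaled to gene length and to library size. The reads that the FPKM values imply came to between 14532359 and 17429200 per library. The 8 plasma cell marker genes looked for (9 symbols, as IGJ is an older name of JCHAIN) were all in the table. Their summed levels were 4391 to 5325 FPKM in LenR and 3710 to 4327 FPKM in WT. Of 3 B cell and 4 myeloid markers 0 were in the table. Of 5 T and NK cell markers 2 were, with sums of 3.07 to 3.87 FPKM in LenR and 3.71 to 4.11 FPKM in WT. Of 3 erythroid markers 1 (HBB) was, at 5.55 to 8.31 FPKM in LenR and 5.83 to 7.11 FPKM in WT. Of 4 epithelial and stromal markers 1 (COL1A1) was, at 0.289 to 0.429 FPKM in LenR and 0.254 to 0.265 FPKM in WT. The deviations of WT replicate 3 and LenR replicate 2 from their own group means correlated at 0.686 across genes, the highest of such LenR and WT pairs. Those of LenR replicate 3 correlated at 0.516 and 0.526 with those of WT replicates 1 and 2. Deviations within a group of 3 depend on each other, so these values are a description only. Members were also compared without WT replicate 3 and LenR replicate 2.

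Each amino acid has its own synthetase, and the cytosolic and mitochondrial enzymes are mostly made from separate nuclear genes, such as AARS and AARS2 for alanine. GARS (glycine) and KARS (lysine) serve both compartments from 1 gene each, EPRS joins the glutamate and proline enzymes in 1 protein, and the cytosolic phenylalanine enzyme is built of the subunits FARSA and FARSB. Many cytosolic synthetase genes are targets of ATF4, the transcription factor that cells make more of when amino acids run short or protein folding fails, and plasma cells depend on this supply because they secrete large amounts of antibody. ATF4 and its partners bind a short element, the C/EBP-ATF response element. AARS has also been described as an enzyme that transfers lactate to lysines.

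The letters of this element, written TGATGNAA, were looked for on either strand in the promoters of the members, from 250 bases before to 50 bases after the RefSeq transcript start (GRCh38.p14). A promoter was at hand for 30 members, and not for AARS2, DARS, LARS, VARS, VARS2 and YARS. The matches are shown because ATF4 is known to bind this element. The element was found in 6 of 10 promoters of the ATF4-responsive cytosolic synthetases, in 0 of 6 promoters of the other cytosolic synthetases and in 1 of 14 promoters of mitochondrial synthetases. It was found in 5 of 23 promoters (21.7%) of the other ATF4 pathway genes, so most of those lacked it in this window. Of all 27305 promoters in the table, 3.67% held it. The ATF4-responsive list came from general knowledge, which may itself rest in part on this element. The contrast between the lists is therefore not independent evidence. Each stretch below is given 5' to 3' on the strand of the gene, with the matching 8 letters in capitals and 26 bases on either side. In 5 of the 6 cytosolic genes the capitals read TTGCATCA, the searched letters on the other strand.
AARS, minus strand, chr16:70289660-70289719: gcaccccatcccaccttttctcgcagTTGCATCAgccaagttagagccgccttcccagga
CARS, minus strand, chr11:3057392-3057451: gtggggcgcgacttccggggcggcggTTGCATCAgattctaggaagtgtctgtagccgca
IARS, minus strand, chr9:92293677-92293736: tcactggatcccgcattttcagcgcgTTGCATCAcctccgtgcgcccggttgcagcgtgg
MARS, plus strand, chr12:57488038-57488097: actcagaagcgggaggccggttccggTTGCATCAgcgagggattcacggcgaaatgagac
NARS, minus strand, chr18:57621789-57621848: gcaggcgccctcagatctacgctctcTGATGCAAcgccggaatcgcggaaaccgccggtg
TARS, plus strand, chr5:33440941-33441000: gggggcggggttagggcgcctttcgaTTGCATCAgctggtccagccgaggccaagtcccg
YARS2, minus strand, chr12:32756061-32756120: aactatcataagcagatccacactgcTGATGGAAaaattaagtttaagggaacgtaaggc

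In CARS, IARS, MARS, NARS and TARS the match began within 15 bases of the transcript start, and in AARS 187 bases before it. The mitochondrial YARS2 match lay 197 bases before the start and differed from the cytosolic genes at the open position. A match is a description of these letters and not a measured binding site.

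Of the 36 members, 34 had a mean of at least 1 FPKM and were tested, and VARS and VARS2 were left out by this filter. Cytosolic genes were the more abundant set: the median gene mean of 19 tested cytosolic members was 56.9 FPKM in LenR and 56.9 FPKM in WT, and that of 15 tested mitochondrial members 17.4 FPKM in LenR and 17.2 FPKM in WT. AARS was highest of all, with a mean of 144 FPKM over the 6 libraries, and WARS2, the mitochondrial tryptophan enzyme, lowest among tested members at 2.66 FPKM. In 11 of 12 same-amino-acid pairs the cytosolic gene was the more abundant, by up to 8.84-fold for asparagine (NARS over NARS2). Cysteine was the exception, with CARS at 16.5 FPKM and mitochondrial CARS2 at 44.2 FPKM. These orders rest on the gene lengths used. With the GENCODE 29 exon length in their place, an alternative chosen after seeing the data, CARS was at 9.29 and CARS2 at 8.07 FPKM, while IARS, of the isoleucine pair, was at 44.3 and IARS2 at 47.1 FPKM, and no other pair changed its order.

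The summed level of each compartment was nearly equal in LenR and WT. The 19 cytosolic genes summed to 1147, 1189 and 1200 FPKM in LenR replicates 1 to 3, against 1160, 1169 and 1184 FPKM in WT replicates 1 to 3. The 15 mitochondrial genes summed to 297, 305 and 303 FPKM in LenR, against 292, 294 and 306 FPKM in WT. The LenR and WT sums overlapped in both compartments, and the LenR mean was 101% of the WT mean in each. In bulk RNA, a lower level in every cell and fewer cells with the transcript cannot be told apart.

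Within these level sums, 1 cytosolic gene rose and 2 fell past an adjusted p of 0.05 (limma on log2(FPKM + 1), Benjamini-Hochberg adjustment over all 11276 genes tested). AARS was higher in LenR, and GARS and FARSB were lower. That is 15.8% of the 19 cytosolic genes tested, beside 15.1% of all genes tested, so the share called was near the background. Over all genes tested, 8.57% were called higher and 6.57% lower in LenR. The median log2 fold change was 0.01 for cytosolic members and -0.002 for all genes tested. None of the 15 mitochondrial members was called by limma, and 2 (LARS2 and MARS2) were at an unadjusted p under 0.05. Of all 11276 genes tested, 3236 were at an unadjusted p under 0.05. With limma's voom on the reads worked out from the FPKM, 0 of the mitochondrial members were called as well. Their median log2 fold change was 0.04. The difference between the compartments was not tested.

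**Figure D1:**
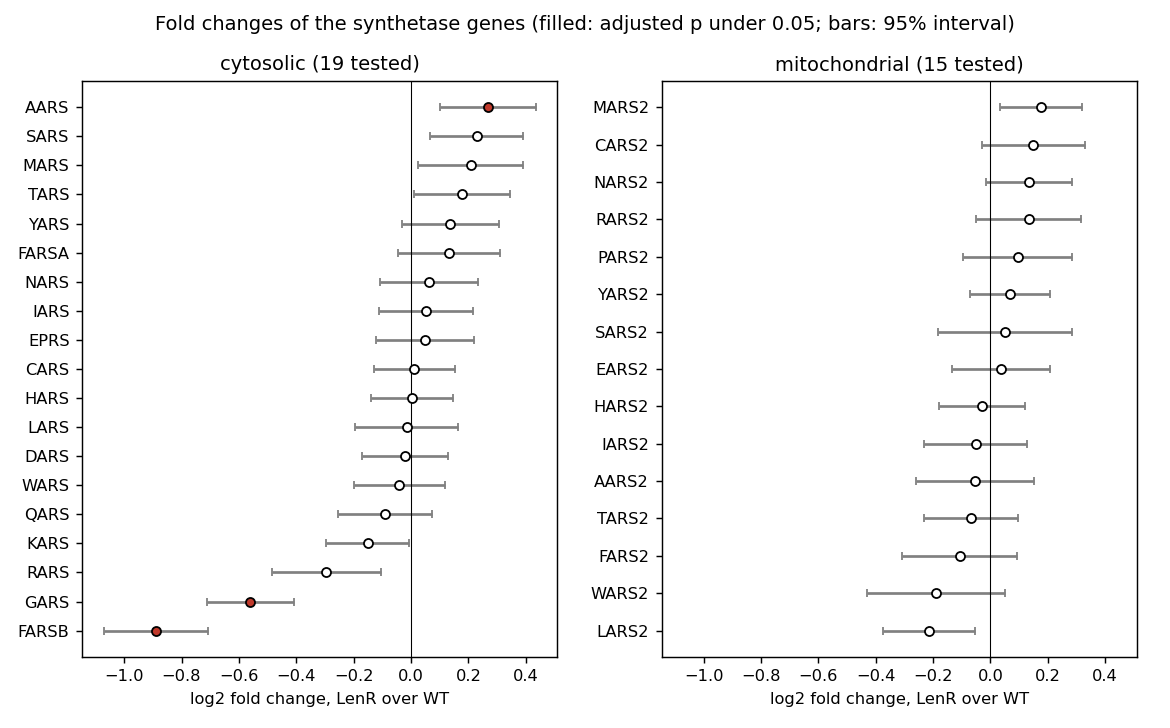
Log2 fold changes of LenR over WT on the log2(FPKM + 1) scale for the 19 cytosolic (left) and 15 mitochondrial (right) members tested, with 95% intervals from limma and filled points for adjusted p under 0.05. Cytosolic values spread from -0.89 (FARSB) to 0.27 (AARS) and mitochondrial values from -0.21 (LARS2) to 0.18 (MARS2).

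FARSB, the beta subunit of the cytosolic phenylalanine enzyme, fell furthest. It measured 28.2, 30.8 and 31.8 FPKM in LenR replicates 1 to 3, against 58.5, 59.5 and 52.8 FPKM in WT replicates 1 to 3. All 3 LenR values lay far below the lowest WT value. The LenR mean of 30.3 ± 1.84 FPKM was 53.2% of the WT mean of 56.9 ± 3.6 FPKM (SD, n = 3 each), a log2 fold change of -0.89 (SE 0.079, limma, adjusted p = 0.000335). It rested on 1100, 1306 and 1488 reads in LenR and 2746, 2640 and 2066 reads in WT. Its call held in all 21 alternative analyses, with adjusted p up to 0.00502.

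FARSA, the alpha subunit that pairs with FARSB in the same enzyme, did not fall with it. FARSA measured 95.5, 84.4 and 83.4 FPKM in LenR, against 78.6, 81.2 and 79.6 FPKM in WT. Each LenR value was above each WT value, but the log2 fold change of 0.13 did not pass (95% interval -0.05 to 0.31, limma, adjusted p = 0.308). The ratio of the FARSB level to the FARSA level was 0.296, 0.365 and 0.381 in LenR, against 0.744, 0.732 and 0.664 in WT. Whether the amounts of protein follow the transcripts was not measured here. FARS2, the separate mitochondrial phenylalanine enzyme, measured 9.1, 7.3 and 8.05 FPKM in LenR and 8.33, 9.3 and 8.85 FPKM in WT, with overlapping groups (log2 fold change -0.11, adjusted p = 0.482).

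GARS, the glycine enzyme of both compartments and an ATF4 target in general knowledge, also fell. It measured 54.5, 58.9 and 57.3 FPKM in LenR, against 85.2, 84.3 and 83.5 FPKM in WT. The groups were well apart, and the replicates of each lay close together. The LenR mean of 56.9 ± 2.23 FPKM was 67.5% of the WT mean of 84.3 ± 0.809 FPKM (SD, n = 3 each; log2 fold change -0.56, SE 0.066, limma, adjusted p = 0.0011). This call held in all 21 alternatives, with adjusted p up to 0.0239. KARS, the other gene that serves both compartments, measured 44, 44.5 and 45.4 FPKM in LenR, against 48.6, 49.2 and 51.3 FPKM in WT. Its groups did not overlap, but it did not pass (log2 fold change -0.15, adjusted p = 0.156).

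AARS, the alanine enzyme, was the only member called higher in the main comparison. It measured 154, 158 and 160 FPKM in LenR, against 125, 129 and 137 FPKM in WT. All LenR values were above all WT values, by a modest margin. The LenR mean of 157 ± 3.22 FPKM was 121% of the WT mean of 130 ± 5.71 FPKM (SD, n = 3 each; log2 fold change 0.27, SE 0.072, limma, adjusted p = 0.0425). This call held in 13 of 21 alternatives, with a limma adjusted p up to 0.259, reached with the replicate number as a block. It did not hold in most of the smaller sets. Leaving out LenR replicate 1, 2 or 3 gave a limma adjusted p of 0.0876, 0.0759 and 0.0875. Leaving out WT replicate 1 gave 0.209, WT replicate 2 gave 0.177 and WT replicate 3 gave 0.0497. It was 0.0202 without both WT replicate 3 and LenR replicate 2, 0.188 with the closely alike WT replicates 1 and 2 averaged, and 0.0828 with all libraries scaled to the same FPKM total. Its mitochondrial counterpart AARS2 measured 18.4, 18.1 and 15.9 FPKM in LenR, against 17.2, 17.2 and 20.1 FPKM in WT, and the groups overlapped (log2 fold change -0.05, adjusted p = 0.761).

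Close behind AARS were other cytosolic enzymes whose LenR and WT levels were apart without passing the test. SARS, the serine enzyme, measured 20.8, 20.7 and 23.5 FPKM in LenR, against 18.5, 18.2 and 18.2 FPKM in WT (log2 fold change 0.23, limma, adjusted p = 0.0662). MARS, the methionine enzyme, measured 113, 124 and 116 FPKM in LenR, against 98.2, 97.9 and 109 FPKM in WT (0.21, adjusted p = 0.125). TARS, the threonine enzyme, measured 57.5, 63.1 and 64.9 FPKM in LenR, against 54.4, 55.4 and 53.6 FPKM in WT (0.18, adjusted p = 0.146). In each of these genes the lowest LenR level was above the highest WT level. RARS, the arginine enzyme, was lower in each LenR library, at 31.2, 29.2 and 33.7 FPKM against 39.8, 40.7 and 35.7 FPKM in WT. Its log2 fold change of -0.30 lay just outside the threshold (adjusted p = 0.0506) and passed in 9 of 21 alternatives. Adjusted p was 0.0353 without WT replicate 3 and 0.0397 without LenR replicate 3, and 0.117 to 0.192 when another single library was left out. For mitochondrial RARS2 the value was 0.13 (adjusted p = 0.316).

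In all, 5 cytosolic members had LenR levels wholly above WT and 5 wholly below, and 3 and 2 mitochondrial members did. Over all genes tested, 18.0% were wholly above and 16.5% wholly below. QARS, the glutamine enzyme, was among those wholly below, at 76.8, 75.7 and 71.8 FPKM in LenR against 77.7, 77.4 and 84.2 FPKM in WT (log2 fold change -0.09, adjusted p = 0.462). CARS, DARS, EPRS, HARS, IARS, LARS, NARS, WARS and YARS had overlapping groups and log2 fold changes between -0.04 (WARS) and 0.14 (YARS). For HARS, the histidine enzyme, the 95% interval of the log2 fold change was -0.14 to 0.15, and for CARS it was -0.13 to 0.15.

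**Figure D2:**
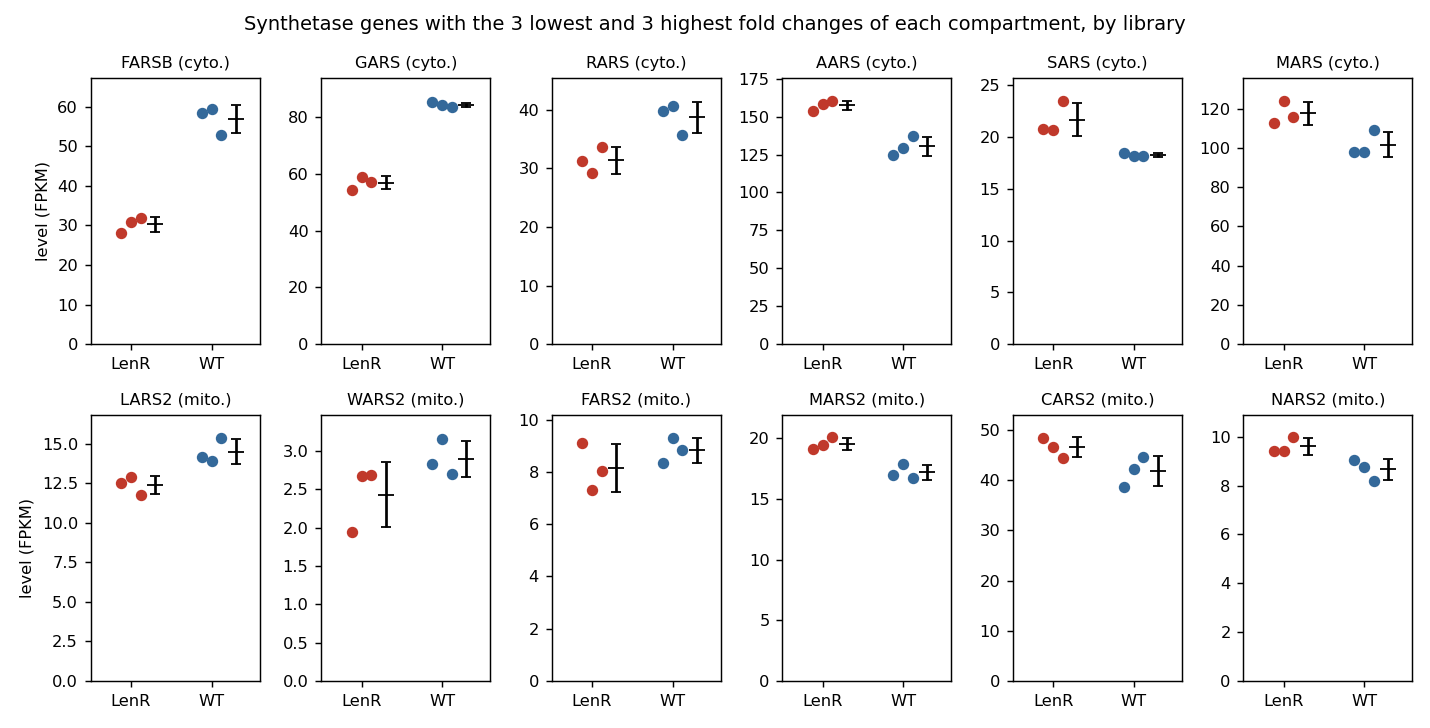
Levels in FPKM in each library for the members with the 3 lowest and 3 highest fold changes of the cytosolic (top) and mitochondrial (bottom) sets, LenR left and WT right in each panel. Points are libraries, and bars are means ± SD (n = 3). FARSB and GARS show the widest gaps, with LenR levels of 28.2 to 31.8 and 54.5 to 58.9 FPKM under WT levels of 52.8 to 59.5 and 83.5 to 85.2 FPKM.

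Among mitochondrial members, LARS2, the leucine enzyme, had the lowest log2 fold change. It measured 12.5, 12.9 and 11.8 FPKM in LenR, against 14.2, 13.9 and 15.4 FPKM in WT (log2 fold change -0.21, limma, adjusted p = 0.0802). MARS2, the methionine enzyme, had the highest, with 19.1, 19.4 and 20.1 FPKM in LenR against 17, 17.9 and 16.7 FPKM in WT (0.18, adjusted p = 0.104). The groups were apart in both genes, yet neither passed. CARS2 measured 48.5, 46.7 and 44.5 FPKM in LenR against 38.7, 42.2 and 44.7 FPKM in WT, and its groups overlapped (0.15, adjusted p = 0.249). NARS2, the asparagine enzyme, stood at 9.43, 9.4 and 9.99 FPKM in LenR and 9.05, 8.76 and 8.18 FPKM in WT (0.14, adjusted p = 0.221). WARS2 measured 1.94, 2.67 and 2.68 FPKM in LenR and 2.83, 3.15 and 2.7 FPKM in WT (-0.19, adjusted p = 0.279), with as few as 80 reads in a library. The log2 fold changes of EARS2, FARS2, HARS2, IARS2, PARS2, RARS2, SARS2, TARS2 and YARS2 lay between -0.11 (FARS2) and 0.13 (RARS2). Of 12 same-amino-acid pairs with both genes tested, 7 had the same sign of log2 fold change in both compartments. In the methionine pair both were above 0, at 0.21 (MARS) and 0.18 (MARS2), and in the leucine pair both were below, at -0.02 (LARS) and -0.21 (LARS2).

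Both genes that fell lie on chromosome segments where the surrounding genes fell too. FARSB (chromosome 2, 222570536 to 222656337, GENCODE 29 on GRCh38) had 46 other tested genes within 5 Mb. All 46 had log2 fold changes below 0, 40 were called lower, and their median was -0.68. GARS (chromosome 7, 30594681 to 30634033) had 28 such neighbours, all below 0, of which 23 were called lower, with a median of -0.58. GARS, at -0.56, lay at about the level of its neighbours, and FARSB, at -0.89, lay below the median of its own. The medians around the other 32 tested members lay between -0.10 and 0.05. AARS (chromosome 16, 70252295 to 70289543) had 100 neighbours with a median of 0.03, of which 5 were called higher and 3 lower. RARS (chromosome 5, 168486445 to 168519299) had 17 with a median of -0.06, of which 1 was called lower. LARS, the cytosolic leucine enzyme (chromosome 5, 146113038 to 146182660), had 14 of 35 neighbours called lower and 5 called higher, and its own log2 fold change was -0.02 (adjusted p = 0.928). DNA copy number was not measured here, and its part in these values was not tested.

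**Figure D3:**
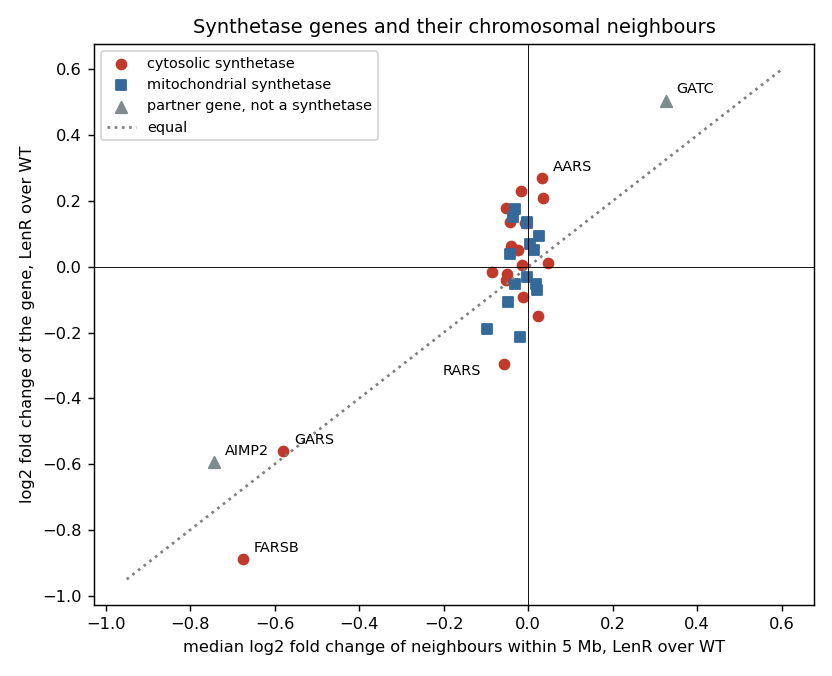
Log2 fold change (LenR over WT) of each tested synthetase gene, and of the partner genes AIMP2 and GATC, against the median log2 fold change of the other tested genes within 5 Mb. The dotted line marks equal values. FARSB and GARS lie at the lower left, at neighbour medians of -0.68 and -0.58, while the other synthetase genes lie between -0.10 and 0.05 on the horizontal axis.

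Several cytosolic synthetases sit together in the multisynthetase complex, a large assembly held by the scaffold proteins AIMP1, AIMP2 and EEF1E1. None of its 8 synthetase genes tested (EPRS, IARS, LARS, MARS, QARS, RARS, KARS and DARS) was called by limma. By limma, 3 were at an unadjusted p under 0.05 (MARS, RARS and KARS), as were 3236 of all 11276 genes tested. With voom 1 of the 8 was called lower (RARS). Of the 3 scaffold genes 1 (AIMP2) was called lower, beside 6.57% of all genes tested. AIMP2 measured 19.8, 19.2 and 17.7 FPKM in LenR, against 28, 27.7 and 31.4 FPKM in WT (log2 fold change -0.59, SE 0.077, adjusted p = 0.00179). The groups did not overlap. AIMP2 lies on the short arm of chromosome 7 as GARS does, at 6009245 to 6023834, and all 48 of its neighbours were below 0, with a median of -0.74. AIMP1 measured 18.3, 16.5 and 19.1 FPKM in LenR and 23, 22.6 and 19.6 FPKM in WT (-0.26, adjusted p = 0.0896). EEF1E1 did not pass (0.11, adjusted p = 0.784).

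Mitochondria charge their glutamine tRNA indirectly, through the amidotransferase subunits GATB, GATC and QRSL1, and start proteins with a formylated methionine made by MTFMT. Of these 4 genes 1 was called, or 25%, beside 15.1% of all genes tested. GATC rose, with 17.7, 16.3 and 17 FPKM in LenR against 11.6, 11.7 and 11.7 FPKM in WT (log2 fold change 0.51, SE 0.061, limma, adjusted p = 0.00128). All LenR values were above all WT values. GATC lies on chromosome 12 at 120446438 to 120463749, where 43 of 79 neighbours were called higher (median 0.33). Its partner GATB stood at -0.13 (adjusted p = 0.242), QRSL1 at -0.07 (adjusted p = 0.575) and MTFMT at 0.11 (adjusted p = 0.512). Of 8 tested genes for further aminoacylation, proofreading, tRNA end repair and tRNA export, PSTK alone was called. That is 12.5%, beside 15.1% of all genes tested. PSTK, the kinase that prepares tRNA for selenocysteine, measured 3.62, 3.63 and 3.92 FPKM in LenR and 2.77, 2.19 and 2.45 FPKM in WT (0.45, adjusted p = 0.00789). It rested on only 61 to 117 reads in a library. Of its 35 neighbours 8 were called higher and 1 lower (median 0.15). XPOT, which exports tRNA from the nucleus and is an ATF4 target, stood at 0.20 (adjusted p = 0.111). None of 6 cytosolic or 4 mitochondrial elongation factor genes was called by limma or by voom. By limma, 0 were at an unadjusted p under 0.05, where 3236 of all 11276 genes tested were.

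Among ATF4 pathway genes outside the synthetases, some were higher in LenR, and about as many did not pass the test. The list of ATF4 targets was drawn up with earlier results of these data known, so its count is not independent evidence of a direction. Of 29 tested genes of the ATF4 pathway outside the synthetases, 13 were called higher and 1 (PPP1R15A, a phosphatase subunit that ends the response) lower in LenR, or 48.3% beside 15.1% of all genes tested, and 15 did not pass. In a model that also fitted the shared shift of LenR replicate 2 and WT replicate 3, 21 were called higher. That model called 3163 of all genes tested, against 1707 in the main one. With the replicate number as a block 7 of the list were called higher, and with a single library left out 10 to 15. The median log2 fold change of the 29 genes in the main model was 0.32, against -0.002 for all genes tested. ATF4 itself measured 295, 278 and 280 FPKM in LenR and 247, 234 and 241 FPKM in WT, apart but not past the threshold (0.24, adjusted p = 0.0724). ASNS, the asparagine synthetase that supplies the substrate of NARS, was higher at 55.2, 57.8 and 62.8 FPKM in LenR, against 45, 44.5 and 41.6 FPKM in WT (0.41, adjusted p = 0.00853). NARS did not pass (0.06, adjusted p = 0.649). PSPH and PHGDH, which make the serine that SARS uses, were higher by log2 fold changes of 0.74 (adjusted p = 0.000313) and 0.52 (adjusted p = 0.00119). PSAT1, of the same pathway, was higher by 0.44. The largest change was in ALDH1L2, a mitochondrial folate enzyme, with 21.9, 22.5 and 23.2 FPKM in LenR against 9.51, 10.3 and 9.88 FPKM in WT (1.11). ALDH1L2 lies on chromosome 12 where 42 of its 61 neighbours were called higher too (median 0.38). The other genes called higher were CBS (0.74) of cysteine synthesis, CHAC1 (0.68), which breaks down glutathione, EIF4EBP1 (0.66), a brake on translation, PYCR1 (0.57) of proline synthesis, and the stress genes DDIT3 (0.50), SESN2 (0.46), ATF3 (0.38) and TRIB3 (0.34). PPP1R15A measured 30, 30.5 and 28.7 FPKM in LenR and 40.3, 39.6 and 43.4 FPKM in WT (-0.46, adjusted p = 0.00327).

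Of 13 synthetases held to be ATF4-responsive, 12 were tested, with 1 called higher (AARS), 1 called lower (GARS) and a median log2 fold change of 0.06. The share called was 16.7%, beside 15.1% of all genes tested. Of these 12, 9 lay above 0 and 3 below. Their summed level was 799, 853 and 860 FPKM in LenR, against 785, 789 and 807 FPKM in WT, so that LenR replicate 1 lay within the WT range. The 7 other cytosolic synthetases had 1 called lower (FARSB, a share of 14.3%), 2 above 0 and a median of -0.09. Their summed level was 348, 336 and 340 FPKM in LenR, below the 376, 380 and 377 FPKM in WT. That gap rested on FARSB, and leaving it out was a choice made after seeing the data. The other 6 genes then summed to 320, 305 and 308 FPKM in LenR and 317, 320 and 324 FPKM in WT. These groups overlapped, none of the 6 was called by limma and the median was -0.06. By limma, 2 of the 6 were at an unadjusted p under 0.05, as were 3236 of all 11276 genes tested. Leaving out GARS, which lies in the lowered segment of chromosome 7, was also a choice made after seeing the data. The ATF4-responsive genes then had 9 of 11 above 0, AARS as the only call and a median of 0.06. Their summed level was then 744, 794 and 803 FPKM in LenR and 700, 705 and 723 FPKM in WT. These groups did not overlap only because GARS, the gene with the lowest log2 fold change of the list, was left out. Of single genes tested, 18.0% had LenR levels wholly above WT. Under the 21 alternatives the median of the ATF4-responsive list ranged from 0.02 to 0.10 and that of the other cytosolic genes from -0.12 to -0.05. The difference between the lists was not tested. The 6 ATF4-responsive genes with the promoter element shown above had log2 fold changes of 0.27 (AARS), 0.21 (MARS), 0.18 (TARS), 0.06 (NARS), 0.05 (IARS) and 0.01 (CARS). EPRS, GARS, SARS and WARS, whose promoters held no match in this window, had 0.05, -0.56, 0.23 and -0.04.

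**Figure D4:**
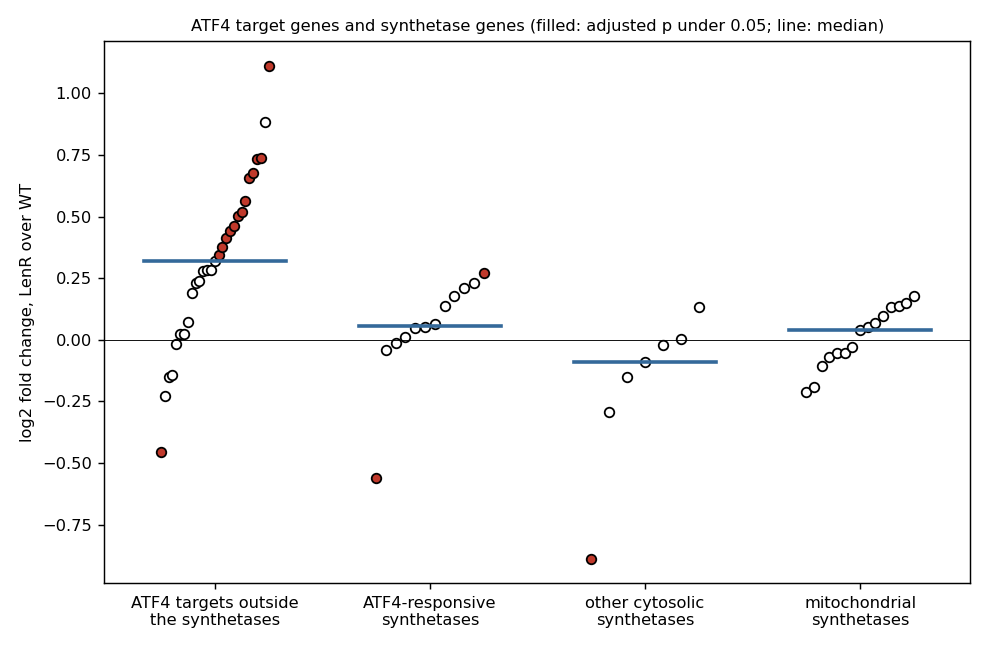
Log2 fold changes (LenR over WT) of 29 ATF4 pathway genes outside the synthetases, 12 ATF4-responsive synthetases, 7 other cytosolic synthetases and 15 mitochondrial synthetases. Filled points passed an adjusted p of 0.05 and lines are medians, at 0.32, 0.06, -0.09 and 0.04.

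VARS and VARS2, the valine enzymes of the cytosol and of mitochondria, could not be compared. VARS was listed at 0.361, 0.218 and 0.569 FPKM in LenR and at 0.306, 3.05 and 0.36 FPKM in WT. VARS2 was listed at 0.046, 0.997 and 0.0511 FPKM in LenR and at 0.0661, 0.363 and 0.0611 FPKM in WT. For VARS, WT replicate 2 stood far above the rest, with 1346 reads against 92 to 265 in the other libraries. For VARS2, LenR replicate 2 (354 reads) and WT replicate 2 (135 reads) stood above the other libraries, which had 15 to 26 reads. Both genes lie in the major histocompatibility region of chromosome 6 (VARS at 31777518 to 31795953, VARS2 at 30908242 to 30926459), for which the genome reference holds alternate copies. The gene lengths worked out from the FPKM were 26616 bases for VARS and 22404 bases for VARS2, or 4.38 and 2.65 times their summed exon length in GENCODE 29. Among all 43 listed genes from 1 Mb before VARS2 to 1 Mb after VARS the length used was over 1.5 times the annotated one, against 2.44% of all genes with a position. The other 34 members had ratios of 0.183 to 1.27. The listed FPKM of VARS and VARS2 were thus divided by far longer lengths than those of the other members, and no fold change is given for them.

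**Figure D5:**
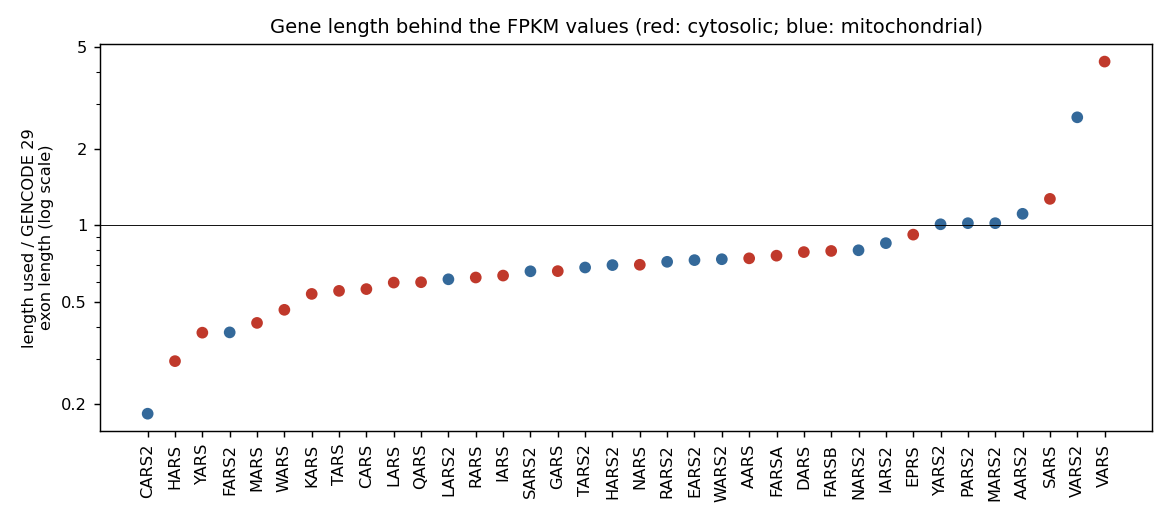
Gene length used for the FPKM divided by the summed exon length in GENCODE 29 for each member, on a log axis. VARS (4.38) and VARS2 (2.65) stand above the other members, which range from 0.183 (CARS2) to 1.27 (SARS).

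HARS and HARS2 are head-to-head neighbours on chromosome 5 whose annotations overlap by 437 bases on opposite strands. Whether reads were counted by strand is not given in the sources used here, so reads in this overlap cannot be assigned with certainty. Neither gene passed.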

How the data were processed

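The 6 libraries, 3 per group, were made from total RNA with a VAHTS Universal V6 kit, per the labels. The authors deposited FPKM values for 12760 genes, 1 column per library, and columns were matched to samples through their descriptions. The submitters' processing notes name edgeR 3.40.2, featureCounts 2.0.3, HISAT2 2.2.1 and FastQC 0.11.9, and the build hg38, and give no roles. The annotation, the strand setting and the rule by which genes were listed are not stated there or in the labels (not given in the sources used here). Values of all 12760 genes were whole multiples of a step within 0.003 of a read, which gave reads and gene lengths. For 119 genes a common factor was needed, and 43 genes, FARSB among them, were doubled or tripled because the length fell short of the coding length.

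The main test used limma 3.58.1 under R 4.3.3 on log2(FPKM + 1), two-sided, with group as the only term and a variance trend, over the 11276 genes averaging 1 FPKM or more. The fit was also run on simulated reads, and the outcome is not used here. Those reads were drawn independently for each library, without the shared shift of LenR replicate 2 and WT replicate 3. Positions came from GENCODE 29, in which 97.29% of names had a single position, and promoter sequences from RefSeq (GRCh38.p14). Alternatives were 21 fits with other scaling, filters, pseudocounts, models or libraries. The members and gene lists were chosen with earlier results of these data known. All members are named, with values by library for called members and the 3 highest and lowest of each compartment. Figures used matplotlib 3.10.9. No p-value was adjusted over a list alone.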

Additional observations from a re-analysis of the deposited data

How the results depend on the processing

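FARSB and GARS were called lower in all 21 alternatives. Cytosolic genes called higher numbered 0 with the replicate number as a block, with WT replicates 1 and 2 averaged or at the same FPKM total, against 1 in the main analysis. They numbered 2 with the GC trend removed or without WT replicate 3 and LenR replicate 2, and 3 with a term for these 2 libraries. Cytosolic genes called lower were 4 with that term, against 2. Mitochondrial genes called were 1 higher (MARS2) and 1 lower (LARS2) with that term and with the GC trend removed. Leaving out single libraries gave 0 to 1 cytosolic genes higher, 2 to 3 lower and 0 mitochondrial genes. The count over all genes, 1707, became 907 with the block, 1052 with WT replicates 1 and 2 averaged, 1075 at a mean of at least 5 FPKM, 2575 with the GC trend removed and 3163 with the term, 1824 without these 2 libraries, and 1006 to 1562 without single libraries. Genes of the ATF4 pathway outside the synthetases called higher were 13, against 7 with the block, 21 with the term and 10 to 15 without single libraries. The cause of these shifts was not tested.

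The replicate numbers did not pair the libraries: deviations of same-numbered LenR and WT libraries correlated at 0.024, -0.557 and -0.683, and the block, which left 0 cytosolic genes higher and 2 lower, is a check only. Of 712 combinations of a member and an alternative, 20 reversed sign, all in genes not called. With the GC trend removed these were CARS (-0.002), LARS (0.004) and SARS2 (-0.010). HARS reached -0.001 with median-ratio scaling, -0.002 with quantile normalization and -0.004 with WT replicates 1 and 2 averaged. Without WT replicate 3 and LenR replicate 2, DARS was 0.009 and HARS2 0.006. Without single libraries CARS ranged from -0.015 to 0.033, DARS from -0.059 to 0.014, HARS from -0.008 to 0.022, LARS from -0.069 to 0.044, AARS2 from -0.091 to 0.018, EARS2 from -0.020 to 0.076 and SARS2 from -0.020 to 0.129. Depth limits WARS2 (80 reads in a library), VARS and VARS2 most.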
